A study of Mus musculus with 42 samples.

Results

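CC chemokines are small secreted proteins that attract leukocytes, and the 10 genes described here, Ccl2, Ccl3, Ccl4, Ccl5, Ccl6, Ccl7, Ccl9, Ccl12, Ccl17 and Ccl22, encode members that macrophages can make. They were taken by gene symbol out of 21897 mouse protein-coding genes with a unique symbol. The rule itself uses symbols and no measured value, but the set was proposed with earlier results of these data known. RNA polymerase II (Pol II) at each gene and acetylated lysine 27 of histone H3 (H3K27ac), which marks promoters and enhancers in use, at each gene start were compared between genotypes and over time after lipopolysaccharide (LPS).

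CC chemokines act through G protein-coupled receptors and differ in the cells they attract. Ccl2, Ccl7 and Ccl12 act on monocytes through Ccr2, and Ccl3, Ccl4 and Ccl5 attract monocytes and T cells, with Ccr1 as a receptor for Ccl3 and Ccl5. Ccl6 and Ccl9 are rodent chemokines with Ccr1 as a receptor, and Ccl17 and Ccl22 attract T cells that carry Ccr4. Toll-like receptor 4, the receptor for LPS, induces many of these genes in macrophages through NF-kB, AP-1 and interferon-dependent factors.

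Chromatin immunoprecipitation with sequencing (ChIP-seq) was performed on bone marrow-derived macrophages (BMDMs) of male C57Bl6/J mice aged 6 to 12 weeks, which were wild type (WT) or lacked the nuclear receptor Nur77, encoded by Nr4a1 (KO). Marrow cells were grown for 7 days with L929-conditioned medium, a source of macrophage colony-stimulating factor, and all groups share this culture. They received 100 ng/ml LPS for 1 h or 18 h or were left untreated (0 h), and each of the 6 groups had 3 Pol II and 3 H3K27ac libraries, 36 in all, beside 6 input libraries. By the methods of the study the deletion is in all cells of the mouse, made by crossing floxed Nr4a1 mice with CMV-Cre mice, and Cre was bred out and WT littermates served as controls, whereas the genotype label of the KO libraries names only Cre. The labels do not say whether the 3 libraries of a group came from separate mice, so p-values measure the spread between these libraries. In cells measured in bulk, fewer cells with signal at a gene and less signal per cell cannot be told apart.

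Pol II libraries held 21.7 to 36.1 M tags (M, mega) and H3K27ac libraries 13.5 to 55.4 M, with 23.6 to 55.4 M in KO and 13.5 to 31.1 M in WT. At the targeted gene Nr4a1, Pol II at 0 h was 195 ± 11.3 normalized tags in WT and 78.1 ± 8.96 in KO (SD, n = 3), a log2 change of -1.22 (limma, adjusted p 0.00012). At 1 h it was 26.3 ± 3.74 in WT and 36.4 ± 2.77 in KO (0.36, adjusted p 0.0926), and at 18 h 4.48 ± 3.95 in WT, with every library of KO at 0 (-0.49, adjusted p 0.0459). H3K27ac at its start did not pass between genotypes at 0, 1 or 18 h (-0.05, 0.20 and -0.77, adjusted p 0.992, 0.622 and 0.141). At 1 h, when most differences below were found, Nr4a1 thus did not check the genotype labels by either mark. All 8 macrophage markers (Csf1r, Adgre1, Itgam, Cd68, Lyz2, Mertk, Fcgr1 and Cd14) carried Pol II in every library, with sums of 18076 to 41989 tags against 0 to 53.2 for 6 neutrophil markers, 65.1 to 247 for 7 lymphocyte markers and 96.0 to 509 for 5 stromal markers. The sum of 4 dendritic cell markers moved with LPS, from 258 to 337 tags at 0 h to 1143 to 1375 at 1 h and 381 to 962 at 18 h over both genotypes. Most of it was Xcr1 (1249 ± 109 tags in WT at 1 h), while Siglech was listed at 0 in every Pol II library and Flt3 in all WT libraries at 1 h. The part of this shift in the chemokine values, those of Ccl17 and Ccl22 included, was not tested. Across 10650 genes, Pol II replicates of a group correlated at r = 0.985 to 0.993. For H3K27ac the KO libraries split at 1 h and 18 h. At 1 h KO replicate 1 correlated at 0.910 and 0.912 with replicates 2 and 3, which correlated at 0.991 with each other. Replicate 1 was the one close to the WT libraries of that time (0.978 to 0.980), whereas replicates 2 and 3 were at 0.903 to 0.905 with them, at 0.868 to 0.876 with the 0 h libraries (0.813 to 0.829 for WT at 1 h) and at 0.904 and 0.905 with KO replicate 1 at 18 h. At 18 h KO replicate 1 correlated at 0.913 and 0.914 with its own replicates and at 0.906 to 0.908 with WT. Which of the 1 h libraries depart from their label cannot be told from these values. H3K27ac calls between genotypes are therefore also given without KO replicate 1 of 1 h and 18 h, and with it as the only KO library of those times, which leaves out replicates 2 and 3.

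Of the 10 genes, 8 lie on chromosome 11 in GRCm38, in 2 clusters that are 1422 kb apart. From low to high coordinates, the cluster of monocyte chemoattractants holds Ccl2 (ENSMUSG00000035385, chr11:82035571-82037453), Ccl7 (ENSMUSG00000035373, chr11:82045712-82047525) and Ccl12 (ENSMUSG00000035352, chr11:82101845-82103400), all on the plus strand. The other cluster holds Ccl5 (ENSMUSG00000035042, chr11:83525778-83530518), Ccl9 (ENSMUSG00000019122, chr11:83572919-83578636), Ccl6 (ENSMUSG00000018927, chr11:83587882-83593087), Ccl3 (ENSMUSG00000000982, chr11:83647844-83649355) and Ccl4 (ENSMUSG00000018930, chr11:83662584-83664683), of which Ccl4 alone is on the plus strand. Ccl22 (ENSMUSG00000031779, chr8:94745590-94751699) and Ccl17 (ENSMUSG00000031780, chr8:94810453-94812036) are both on the plus strand of chromosome 8, 58.8 kb apart. Close neighbours are Ccl2 and Ccl7, 8.26 kb apart, Ccl9 and Ccl6, 9.24 kb apart, and Ccl3 and Ccl4, 13.2 kb apart.

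The promoters are shown because Pol II and H3K27ac were measured over them and because neighbours that moved together can be compared by their letters. RefSeq (GRCm38.p6) promoter sequences of 250 bases before the gene start were found for 6 of the 10 genes and not for Ccl2, Ccl4, Ccl5 and Ccl7. They were searched on both strands for TGANTCA (AP-1, where N is any base), GGGA and TCC with any 3 bases between them (NF-kB), GAAA and GAAA with any 2 bases between them (interferon response) and AAAGGTCA (NBRE, the monomer element of Nur77). Capitals mark each match, and lower case is the rest of the sequence, 5′ to 3′ on the strand of the gene. Shown are Ccl22 (chr8:94745434-94745683, plus strand), Ccl6 (chr11:83593088-83593337, minus strand) and Ccl9 (chr11:83578637-83578886, minus strand), which hold the matches, and Ccl3 (chr11:83649379-83649628, minus strand) and Ccl12 (chr11:82101595-82101844, plus strand), which hold none.
Ccl22: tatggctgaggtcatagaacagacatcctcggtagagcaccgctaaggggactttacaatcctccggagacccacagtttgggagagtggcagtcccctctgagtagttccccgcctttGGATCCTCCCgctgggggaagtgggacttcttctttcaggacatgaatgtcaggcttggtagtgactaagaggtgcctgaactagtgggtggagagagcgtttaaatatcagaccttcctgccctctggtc
Ccl6: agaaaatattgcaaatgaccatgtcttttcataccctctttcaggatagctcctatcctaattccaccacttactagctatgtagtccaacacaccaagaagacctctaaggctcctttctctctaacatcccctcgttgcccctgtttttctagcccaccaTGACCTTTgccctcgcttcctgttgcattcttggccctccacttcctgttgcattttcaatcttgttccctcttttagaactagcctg
Ccl9: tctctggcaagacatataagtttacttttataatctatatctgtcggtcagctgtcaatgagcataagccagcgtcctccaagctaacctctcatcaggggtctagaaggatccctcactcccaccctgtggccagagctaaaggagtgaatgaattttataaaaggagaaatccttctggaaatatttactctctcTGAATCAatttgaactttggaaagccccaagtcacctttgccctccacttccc
Ccl3: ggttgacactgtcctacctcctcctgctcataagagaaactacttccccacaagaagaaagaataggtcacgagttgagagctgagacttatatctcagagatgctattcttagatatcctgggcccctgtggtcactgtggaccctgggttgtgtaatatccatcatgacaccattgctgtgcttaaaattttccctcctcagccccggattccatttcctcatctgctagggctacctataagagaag
Ccl12: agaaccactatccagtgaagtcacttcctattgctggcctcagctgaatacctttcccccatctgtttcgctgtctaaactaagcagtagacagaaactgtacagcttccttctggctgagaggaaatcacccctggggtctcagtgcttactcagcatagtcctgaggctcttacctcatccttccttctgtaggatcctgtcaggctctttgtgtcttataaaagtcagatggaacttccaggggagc
Ccl22 had an NF-kB match, GGATCCTCCC, 131 bases before its RefSeq start, Ccl6 an NBRE match, TGACCTTT, 88 bases before, and Ccl9 an AP-1 match, TGAATCA, 53 bases before. The RefSeq start of Ccl22 (chr8:94745684) lies 94 bases inside the gene as annotated above, so that the match is 37 bases before that start, and the RefSeq start of Ccl3 lies 23 bases before its annotated one. The matches do not overlap each other. The remaining promoter, that of Ccl17, held none. Of 32851 RefSeq mouse promoters of the same length, 6.75% held the AP-1 letters, 3.86% those for NF-kB, 2.98% those for the interferon response and 1.34% the NBRE, so 1 match in 6 promoters is a description only. A window without a match lacks only these letters.

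The value of a gene is in normalized tags (tags per 10 M tags of the library) of the deposited enriched regions. For Pol II it covers the gene with 500 bp on either side, and for H3K27ac 2500 bp on either side of the gene start, and a region that reaches beyond is shared out by overlap. A gene is listed at 0 where no region was found. Neighbours were often covered by the same region, which then gives both genes its mean density. For Pol II this held for Ccl3 and Ccl4 in 17 of 18 libraries, for Ccl6 and Ccl9 in 11 and for Ccl2 and Ccl7 in 1. For H3K27ac it held for Ccl2 and Ccl7 in 14, Ccl3 and Ccl4 in 13 and Ccl6 and Ccl9 in 8. The values of such pairs are thus not independent.

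The time course in WT cells came first. After 1 h of LPS Pol II rose at all 10 genes, whereas 18.6% of all tested genes rose and 68.3% fell (limma, adjusted p under 0.05). Ccl22 and Ccl17, which were listed at 0 in all libraries at 0 h, were tested only through their 1 h values and could only rise, so the count that could have gone either way is 8 of 8. The median change on the log2(tags + 10) scale, which all log2 changes below use and which understates those of low values, was 2.50 over the 10 genes and -0.82 over all genes.

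The receptor Ccr2 is shared by the products of Ccl2, Ccl7 and Ccl12. Pol II at Ccl2 was 1089, 1279 and 1220 tags at 0 h and 4972, 5197 and 4898 at 1 h, a log2 change of 2.06 ± 0.15 (SE, adjusted p 3.53e-10). Ccl7 went from 905, 819 and 765 tags to 4266, 4711 and 4780 (2.45 ± 0.12, adjusted p 3.25e-12). At Ccl12 the values were 49.8, 45.5 and 45.5 tags at 0 h and 283, 356 and 338 at 1 h (2.55 ± 0.17, adjusted p 1.19e-10). The ranges at 0 h and 1 h did not overlap at any of the 3 genes. They differed in density, which compares genes per length. At 1 h Ccl2 carried 1742 tags per kb and Ccl7 1630, but Ccl12 127.

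Ccl3 and Ccl4, the macrophage inflammatory proteins 1α and 1β, showed the densest Pol II of the 10 genes in WT at 1 h, 2021 tags per kb in the region that covers both, although the libraries of Ccl3 (1764 to 2330 tags per kb) overlapped those of Ccl2 (1699 to 1803). Ccl3 was at 697, 692 and 675 tags at 0 h and 4431, 5854 and 4948 at 1 h (log2 change 2.86 ± 0.10, adjusted p 8.28e-15). The change of Ccl4 was 2.86 ± 0.18 (adjusted p 6.7e-11). Ccl5, also named RANTES, was the gene with the widest swing. It was at 7.61, 8.87 and 0 tags at 0 h and 5017, 5454 and 5446 at 1 h (8.48, adjusted p 4.15e-18). Its Pol II at 0 h was thus near or below the limit of the region search.

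Ccl6 and Ccl9, which already carried 382 tags per kb at 0 h as the mean of a region that covers both, rose least. Ccl9 went from 2513, 2644 and 2546 tags to 5031, 5098 and 5338 (log2 change 1.00 ± 0.12, adjusted p 6.75e-07), and Ccl6 from 2321, 2442 and 2352 to 4648, 4709 and 4932 (1.00 ± 0.10, adjusted p 3.74e-08). In a window of 500 bp around the gene start Ccl9 changed by 0.29 and missed the threshold (adjusted p 0.0567). The Ccr4 ligands had Pol II at 1 h only. Ccl22 was listed at 0 in all WT libraries at 0 h and was at 720, 733 and 764 tags at 1 h (adjusted p 8.99e-19). Ccl17 was also listed at 0 and reached 7.76, 18.1 and 16.7 tags (adjusted p 2.16e-05), or 5.49 tags per kb.

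**Figure D1:**
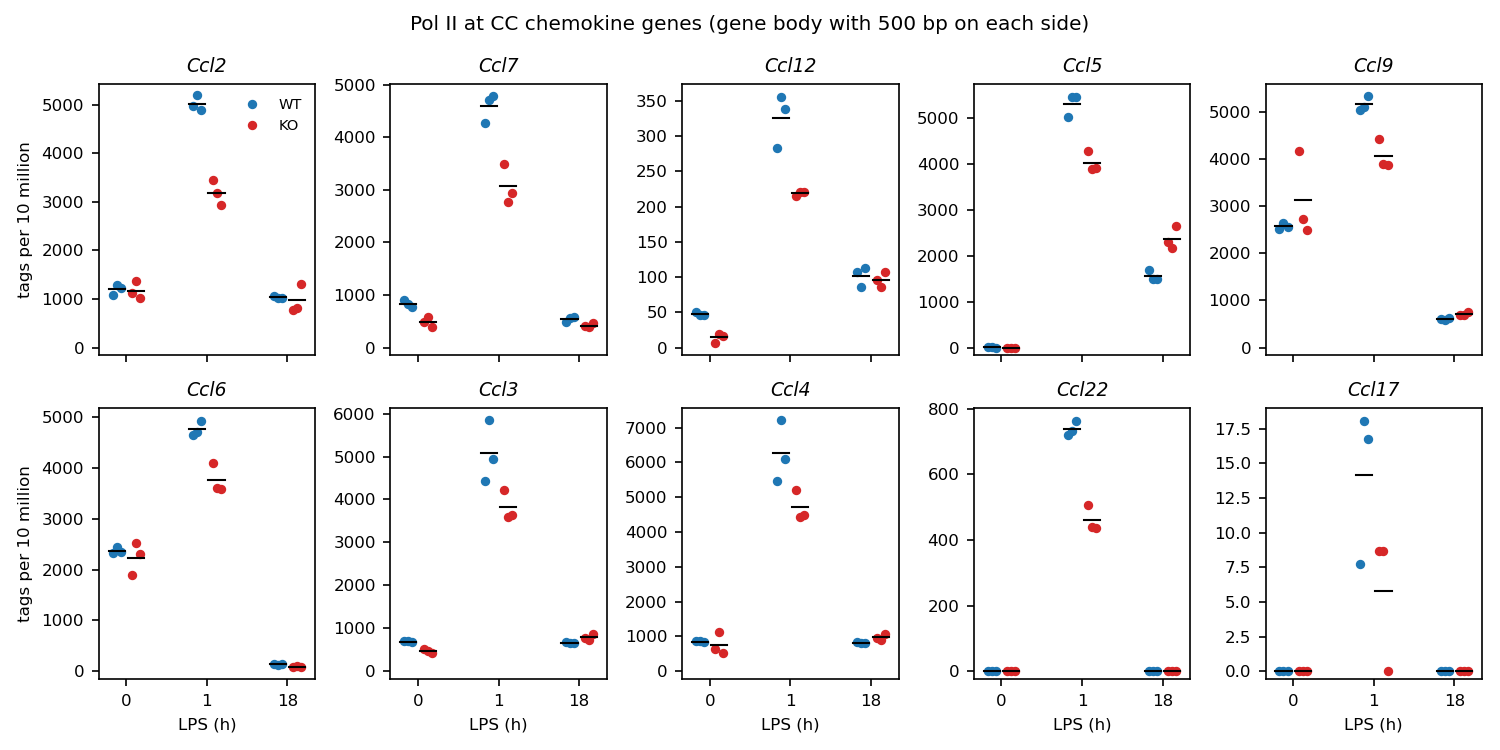
Pol II in normalized tags over each of the 10 genes (vertical axis) by genotype and hours of LPS, with a point for each of the 3 libraries of a group. In WT every library at 1 h lies above every library at 0 h at all 10 genes, and at Ccl22 and Ccl17 values above 0 appear only at 1 h.

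At 18 h the genes parted. In WT Pol II was above 0 h at Ccl5 and Ccl12, below it at Ccl6, Ccl9 and Ccl7, and did not pass the test at Ccl2, Ccl3 and Ccl4. Of the 8 genes tested, 2 thus rose and 3 fell, beside 33.2% and 33.3% of all tested genes. Ccl5 was at 1687, 1490 and 1493 tags (log2 change from 0 h 6.71, adjusted p 2.11e-16), and Ccl12 at 107, 85.5 and 114 (0.97, adjusted p 6.17e-05). Ccl6 had dropped to 138, 128 and 146 tags (-4.02, adjusted p 3.21e-16), far below its level at 0 h, which was the mean density of the region shared with Ccl9. Ccl9 was at 599, 593 and 624 tags (-2.07, adjusted p 8.2e-11) and Ccl7 at 489, 564 and 585 (-0.60, adjusted p 0.000406). The pair Ccl6 and Ccl9, which shared its region in every WT library at 0 h and 1 h, separated at 18 h. Ccl6 then carried 22.1 tags per kb and Ccl9 90.1. The WT values of Ccl2 at 18 h, 1058, 1020 and 1018 tags, lay below all those at 0 h, but the change of -0.21 had an adjusted p of 0.218.

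From 1 h to 18 h Pol II in WT fell at all 10 genes, while 18.8% of all tested genes fell. Ccl22 and Ccl17, at 0 in all WT libraries at 18 h, could again move only this way. The share of the 1 h mean that was left ranged widely. It was 31.3% at Ccl12, 29.3% at Ccl5, 20.6% at Ccl2, 13.1% at Ccl3 and Ccl4, 11.9% at Ccl7, 11.7% at Ccl9 and 2.88% at Ccl6. Ccl22 and Ccl17 were listed at 0 again. The order of the genes by density changed accordingly, from Ccl3 and Ccl4, Ccl2, Ccl7, Ccl5 at 1 h to Ccl2 (358 tags per kb), Ccl5 (271), Ccl3 and Ccl4 (265), Ccl7 (194) at 18 h. At 18 h the Ccl5 libraries, at 259 to 294 tags per kb, overlapped those of Ccl3, at 263 to 267, so the order of these neighbours is not set.

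The KO cells showed the same direction at 1 h. Pol II rose at all 10 genes, beside 20.6% of all tested genes, with Ccl5, Ccl22 and Ccl17 at 0 in every KO library at 0 h and thus able only to rise. The smallest change was that of Ccl9, 0.41 (adjusted p 0.00539). It was -0.12 after quantile normalization (adjusted p 0.442), and without replicate 2 or 3 its adjusted p was 0.0864 or 0.0893. At 18 h in KO 4 of 8 tested genes were above 0 h and 2 were below, beside 28.0% and 42.1% of all tested genes. Ccl3 rose in KO (0.74, adjusted p 1.94e-06), as did Ccl4 (0.43, adjusted p 0.0433), Ccl5 and Ccl12 (2.17), while Ccl9 (-2.07) and Ccl6 (-4.46) fell. The change of Ccl4 passed in 6 of 14 settings tried, and was 0.13 without replicate 3 (adjusted p 0.612) and 0.79 without replicate 2. Ccl7 did not pass in KO (-0.20, adjusted p 0.163).

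The genotypes were then compared at each time. At 1 h Pol II was lower in KO at 8 of the 10 genes, beside 7.53% of all tested genes that were lower and 38.1% that were higher, and the remaining 2, Ccl5 and Ccl4, were also below WT. The median change was -0.48 over the 10 genes and 0.24 over all genes. All 10 had an unadjusted p under 0.05, and every KO library lay below every WT library except at Ccl17. The shares of all genes that do so were not determined. Ccl3 with Ccl4, and Ccl6 with Ccl9, each carry the density of a single region at 1 h.

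Among the Ccr2 ligands, Ccl2 in KO at 1 h was at 3441, 3187 and 2944 tags, 63.5% of the WT mean (log2 change -0.66 ± 0.14, SE, adjusted p 0.00157). Ccl7 was at 3492, 2767 and 2931 tags, 66.8% of WT (-0.59 ± 0.12, adjusted p 0.00112). Ccl12 was at 214, 221 and 221 tags, 67.2% of WT (-0.55 ± 0.17, adjusted p 0.0128). None of the 3 genes had a KO library within the range of WT. Ccl22 was at 508, 440 and 438 tags, 62.5% of WT (-0.67 ± 0.11, adjusted p 0.00011), and the changes of Ccl2, Ccl7 and Ccl22 passed the test in all 14 settings tried. Ccl17 was at 8.66, 8.69 and 0 tags (-0.65 ± 0.22, adjusted p 0.0215), near the limit of the region search.

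In the Ccl5 to Ccl4 cluster KO was at 75.2% to 78.9% of WT at 1 h. Ccl3 in KO was at 4212, 3598 and 3640 tags, 75.2% of WT (log2 change -0.41 ± 0.10, adjusted p 0.00247), and Ccl4, in the same region in all 6 libraries at 1 h, was also at 75.2% of WT. Its change of -0.41 ± 0.18 missed the threshold (adjusted p 0.0706), with an error that the fit takes from all 6 groups, Ccl4 in KO at 0 h (530 to 1129 tags) included. Ccl5 was at 4281, 3881 and 3908 tags, 75.8% of WT (-0.40 ± 0.16, adjusted p 0.0507). Ccl9 and Ccl6 were each at 78.9% of WT, with changes of -0.34 ± 0.12 (adjusted p 0.0305) and -0.34 ± 0.10 (adjusted p 0.00965). The changes of the clusters were not tested against each other.

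A scaling bears on these values, since the median over all genes at 1 h was 0.24 higher in KO. With each library centred on its median, all 10 genes were lower in KO, from -0.59 at Ccl6 and Ccl9 to -0.92 at Ccl22. Without replicate 2 only Ccl2, Ccl7 and Ccl22 passed the test, and without replicate 3 Ccl2, Ccl3, Ccl5, Ccl7 and Ccl22 did. The macrophage markers moved too, with summed Pol II of 18076 to 18834 tags in KO and 27636 to 28527 in WT at 1 h. Of the 8 markers 4 were lower in KO and 1, Csf1r, was higher, and none was at 0. Lymphocyte markers summed to 89.9 to 115 tags in KO and 65.1 to 80.4 in WT, with Ms4a1 and Cd3d of 3 tested higher in KO, and stromal markers to 96.0 to 127 in KO and 130 to 198 in WT, with Pdgfra higher and Pecam1 lower. The neutrophil marker S100a8 (1.15), the only one tested, and the dendritic marker Flt3 (0.44) were higher in KO. The part of these shifts in the chemokine values was not tested.

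Before LPS Pol II was lower in KO at 4 of the 8 genes tested and higher at none, beside 2.71% and 4.17% of all tested genes. Neutrophil markers summed to 51.5 to 53.2 tags in KO and 22.1 to 40.0 in WT, with S100a8 of 3 tested higher in KO (1.02), and their part in these values was not tested. Ccl12 was at 6.85, 19.0 and 16.9 tags in KO, well under the 45.5 to 49.8 of WT (log2 change -1.27 ± 0.17, adjusted p 7.84e-05). Regions covered 24.6% to 56.5% of its window in KO and all of it in WT, the part of which was not tested, and within 500 bp of the start the change was -0.40 (adjusted p 0.151). Ccl7 was at 487, 576 and 385 tags, 58.2% of WT (-0.78 ± 0.12, adjusted p 0.00051). Ccl3 was at 517, 470 and 429 tags, 68.6% of WT (-0.54 ± 0.10, adjusted p 0.00139, and 0.0615 without replicate 3). The KO and WT libraries did not overlap at these 3 genes. Ccl5 had no region in any KO library, but had one in 2 of 3 WT libraries (adjusted p 0.0369). This is a call at the limit of the region search whose direction was fixed by the values of 0 in KO. Without replicate 1 or 2 it was not tested, and its adjusted p was 0.311 with a pseudocount of 50. Ccl2, the neighbour of Ccl7, was at 1132, 1365 and 1017 tags in KO (-0.04, adjusted p 0.93), so the pair differed in this respect. Ccl4 was at 638, 1129 and 530 tags, and the high replicate 2 held its change at -0.22 (adjusted p 0.556), against -0.53 (adjusted p 0.0261) without it. That replicate alone of the Pol II libraries has a region of its own at Ccl4, not shared with Ccl3. Ccl9 (4156, 2730 and 2487 tags, 0.25, adjusted p 0.294), of which replicate 1 has a region of its own not shared with Ccl6, and Ccl6 (-0.10, adjusted p 0.674) did not pass the test.

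At 18 h the direction was mixed. Pol II was higher in KO at Ccl5 and lower at Ccl6 and Ccl7, 1 and 2 of 8 tested genes, beside 7.55% and 13.4% of all tested genes. Ccl5 was at 2294, 2158 and 2636 tags, 152% of WT, with no overlap (log2 change 0.60 ± 0.16, adjusted p 0.013). Without replicate 1 or 2 its adjusted p was 0.0734 or 0.0725, and with a pseudocount of 1 it was 0.503. Ccl6 was at 88.7, 105 and 80.7 tags, 66.7% of WT (-0.54 ± 0.10, adjusted p 0.000706), and 0.0678 without replicate 3. Regions covered 51.2% to 69.5% of its window in KO and 69.4% to 84.2% in WT, and the part of this in the change was not tested. Ccl7 was at 400, 383 and 461 tags, 76.0% of WT (-0.39 ± 0.12, adjusted p 0.0333), and missed the threshold whichever replicate was left out (adjusted p 0.0652 to 0.209). The KO libraries of Ccl9 (696, 699 and 761 tags), Ccl3 (774, 735 and 874) and Ccl4 (955, 907 and 1079) all lay above those of WT, with changes of 0.24, 0.25 and 0.25 that did not pass (adjusted p 0.176, 0.0743 and 0.354). Ccl2 (779, 811 and 1317 tags) and Ccl12 (96.3, 85.6 and 107) overlapped between the genotypes. Summed Pol II at the macrophage markers was 35083 to 36383 tags in KO and 41390 to 41989 in WT at 18 h. Lymphocyte markers summed to 130 to 138 tags in KO and 171 to 191 in WT, with Ms4a1 and Cd3d of 3 tested lower in KO, and the dendritic marker Xcr1 was higher in KO (0.71). The part of these shifts in the chemokine values at 18 h was not tested. The input library of KO at 18 h was weak. It held 0.143 tags at Ccl6 against 51.7 in WT, and with the input subtracted the change of Ccl6 was 0.08.

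**Figure D2:**
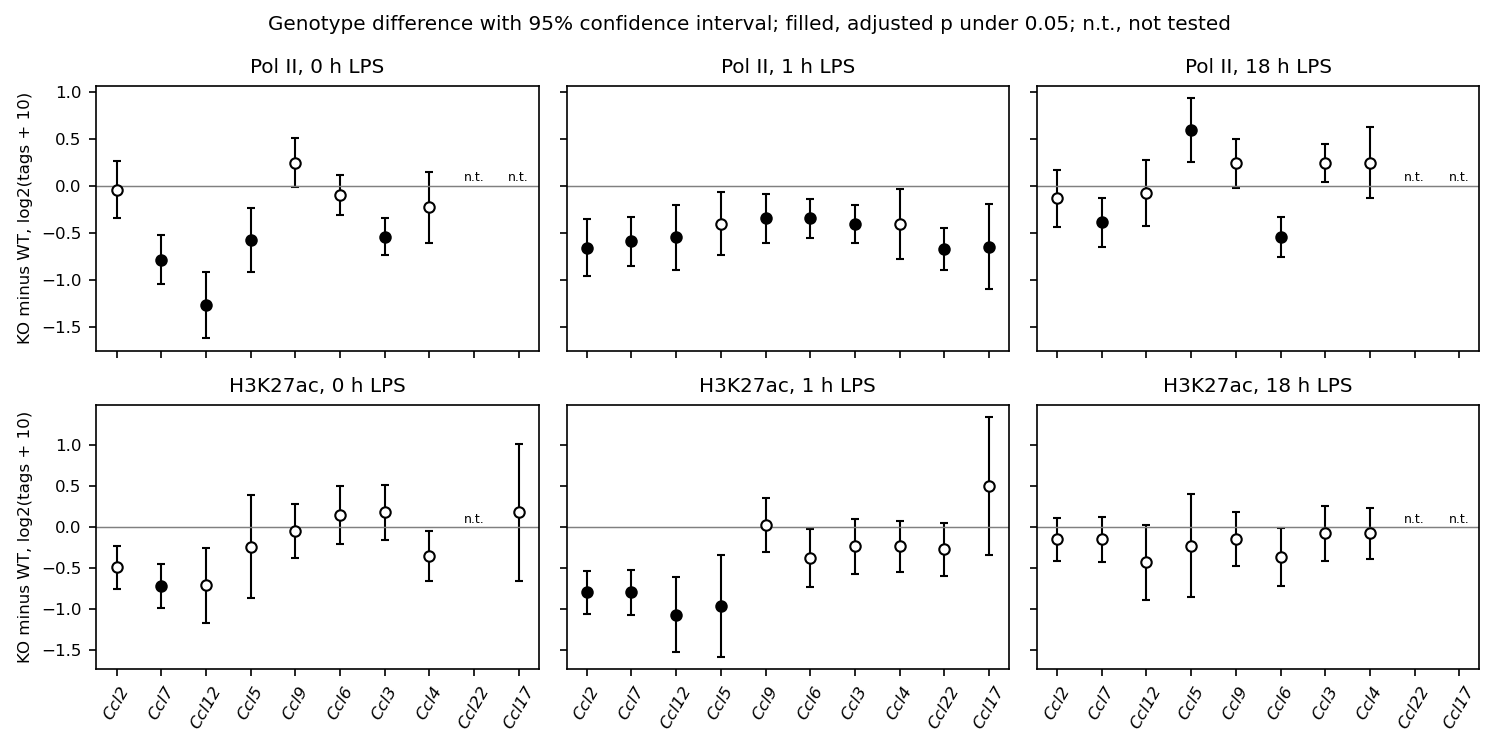
Difference between KO and WT (vertical axis, log2(tags + 10)) for each gene at 0, 1 and 18 h of LPS, Pol II above and H3K27ac below. Points are limma estimates from 3 libraries per group, bars are 95% confidence intervals, filled points have an adjusted p under 0.05 and n.t. marks genes not tested. All 10 Pol II estimates at 1 h lie below 0, whereas those at 18 h lie on both sides.

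Whether the response to LPS itself differed was tested with the genotype by LPS interaction, the change from 0 h in KO minus that in WT. At 1 h it passed for 4 of 10 genes, 3 lower and 1 higher, beside 4.22% and 14.2% of all tested genes. Among 8 macrophage markers it was lower for 4 and higher for 1, with a median of -0.40 against -0.21 over the 10 genes. The part of this in the chemokine values was not tested. The response was smaller in KO at Ccl2 (-0.62 ± 0.21, SE, adjusted p 0.0461), Ccl9 (-0.59 ± 0.18, adjusted p 0.0276) and Ccl22 (-0.67 ± 0.14, adjusted p 0.00414). Ccl22 was listed at 0 before LPS, so its interaction is the difference at 1 h itself. The response of Ccl12 was larger (0.72 ± 0.24, adjusted p 0.0424), from a lower start, but in a window of 500 bp around the start its interaction was -0.12. Of 14 settings tried, that of Ccl2 passed in 5 (adjusted p up to 0.296) and that of Ccl12 in 6 (up to 0.784), against 9 for Ccl9. Without replicate 1 those of Ccl9 and Ccl22 remained, without replicate 2 none did, and without replicate 3 only that of Ccl2 did.

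At 18 h the interaction passed for 4 of 8 genes, 3 higher and 1 lower, beside 4.86% and 9.95% of all tested genes. Among 8 macrophage markers it was lower for 5 and higher for none, the part of which in the chemokine values was not tested. The response was larger in KO at Ccl3 (0.79 ± 0.13, adjusted p 0.000729), and this passed in all 14 settings tried. It combines a lower value at 0 h and a higher one at 18 h, which did not itself pass. Ccl4 shares the region of Ccl3 in 17 of 18 libraries, but its interaction passed in 1 of 14 settings (0.19 to 0.83). At Ccl5 the response was larger in KO (1.17 ± 0.23, adjusted p 0.0021), with a range of 0.58 to 2.74 over the settings. It is the 18 h difference of 0.60 minus the 0 h difference of -0.58, and the latter rests on 0 tags in every KO library against 7.61, 8.87 and 0 in WT. Without replicate 1 or 2 Ccl5 did not pass. Ccl12 was larger in KO as well (1.20 ± 0.24, adjusted p 0.00229), passing in 13 of 14 settings with a range of 0.34 to 2.41, the former in the narrower window (adjusted p 0.437). It rests on the 0 h difference of -1.27, with KO near the limit of the region search, while the genotypes overlapped at 18 h. At Ccl6, where Pol II fell, the interaction was -0.45 ± 0.14 (adjusted p 0.0413), a deeper fall in KO (-4.46) than in WT (-4.02). It passed in 2 of 14 settings and was 0.18 with the input subtracted.

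The order along chromosome 11 was examined with regions merged over the 18 libraries, an alternative chosen after seeing the data, in which each region counts once. In the low-coordinate cluster Pol II at 1 h was lower in KO in the region that holds Ccl2 and Ccl7 (chr11:82027475-82051248), with 22959 ± 2413 tags (1101 per covered kb) against 35897 ± 1978 in WT (1686 per kb). The log2 change there was -0.69 at 0 h (adjusted p 0.000293), when regions covered 12.6 kb of it in KO (269 tags per kb) and 15.7 kb in WT (343 tags per kb), -0.65 at 1 h (adjusted p 0.000103) and -0.33 at 18 h (adjusted p 0.0286). The region of Ccl12 (chr11:82099002-82108449) changed by -1.72 at 0 h, -0.42 at 1 h and -0.08 at 18 h, the last with an adjusted p of 0.74. The merged region of Ccl2 and Ccl7 was thus lower in KO at all 3 times, while Ccl2 in its own window passed at 1 h only.

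In the other cluster the sign turned between 1 h and 18 h. The region of Ccl5 (chr11:83470692-83554399, which also overlaps Heatr9 and Taf15) held 32625 ± 957 tags in WT and 24861 ± 1571 in KO at 1 h (log2 change -0.39, adjusted p 0.00086). At 18 h it held 13726 ± 95 and 21097 ± 1514 (0.62, adjusted p 2.58e-05), or 194 and 280 tags per covered kb. In the region of Ccl9 and Ccl6 (chr11:83566787-83609253) the change went from -0.35 (adjusted p 0.000274) to 0.23 (adjusted p 0.00982). That of Ccl3 and Ccl4 (chr11:83637824-83669967) went from -0.59 (adjusted p 3.2e-05) to 0.28 (adjusted p 0.02), with 1897 and 1289 tags per kb in WT and KO at 1 h, and 241 and 288 at 18 h. All 3 regions were thus lower in KO at 1 h and higher at 18 h, while Ccl6 alone was lower in KO in its own window at 18 h. Among all merged Pol II regions tested, 8.86% were lower and 42.4% higher in KO at 1 h, and 16.6% lower and 13.0% higher at 18 h.

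**Figure D3:**
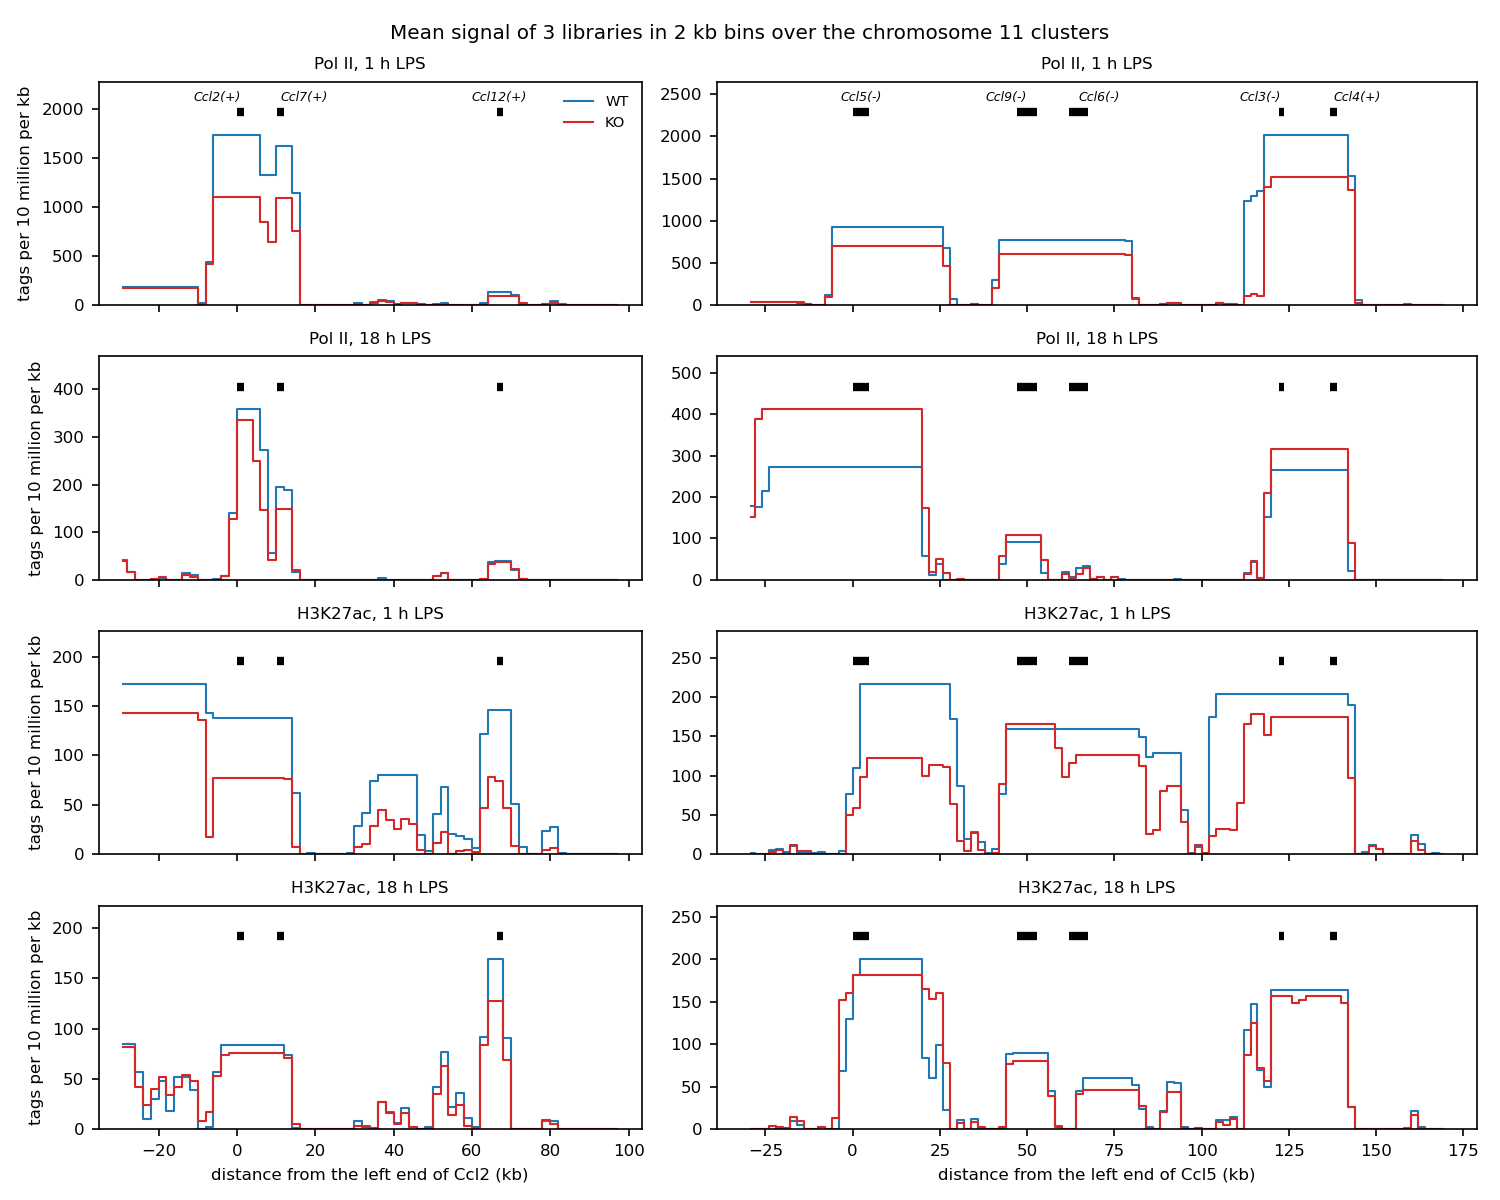
Mean signal of the 3 libraries of WT and KO (tags per 10 M per kb, vertical axes, in bins of 2 kb) along the chromosome 11 clusters, as distance in kb from the left end of Ccl2 (left panels) and of Ccl5 (right panels), for Pol II and H3K27ac at 1 h and 18 h; black bars are the genes. Flat stretches are single deposited regions, which carry 1 mean density. At 1 h the WT line lies above that of KO over each gene for Pol II, and at 18 h the KO line is above over Ccl5, Ccl9, Ccl3 and Ccl4.

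The other protein-coding genes around the clusters, from 100 kb before Ccl2 to 100 kb after Ccl4, give a local comparison. Of 30 tested neighbours 12 were lower and 4 higher in KO at 1 h, beside 7.53% and 38.1% of all tested genes. Their median change was -0.18, against -0.48 over the 10 chemokine genes, of which 2 lie on chromosome 8. At 18 h 1 of 25 was lower and 4 were higher, beside 13.4% and 7.55%. The neighbours include other CC ligand genes, Ccl8 among them, and a gene whose span holds Ccl2. Neighbours can share regions with the chemokine genes, so these values do not set chemokine genes against unrelated genes.

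H3K27ac at the gene starts was compared in the same way. In WT at 1 h it rose at 8 of 10 gene starts, beside 25.2% of all tested genes, and the exceptions were Ccl9 (0.09, adjusted p 0.665) and Ccl6 (0.36, adjusted p 0.079). Of the 8, Ccl22 and Ccl17 were tested only through 1 h. Ccl5 went from 20.8, 16.1 and 12.3 tags to 1141, 1083 and 1022 (log2 change 5.38, adjusted p 1.16e-09). Ccl2 went from 172, 175 and 164 tags to 781, 512 and 777 (1.93, adjusted p 6.34e-09), and Ccl12 from 217, 225 and 221 to 783, 700 and 710 (1.68, adjusted p 8.42e-06). Ccl3 rose by 0.96 (adjusted p 0.0001). Ccl22 was listed at 0 at 0 h and was at 37.4, 41.7 and 40.7 tags at 1 h (adjusted p 4.38e-09), far below the other gene starts that rose except Ccl17, which was at 27.6, 33.1 and 34.4 tags.

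At 8 of the 10 genes H3K27ac in WT kept a larger share of its 1 h level at 18 h than Pol II did, which is a description of means and was not tested. At Ccl22 and Ccl17 both marks were listed at 0. At 18 h in WT it was above 0 h at 6 of 8 tested genes and below it at 2, beside 23.5% and 26.4% of all tested genes. Ccl12 kept 116% of its 1 h mean and Ccl5 92.7%, whereas their Pol II was at 31.3% and 29.3%. Ccl3 and Ccl4 kept 80.4%, Ccl2 and Ccl7 61.0%, Ccl9 56.1% and Ccl6 38.0%. From 1 h to 18 h H3K27ac fell at 6 of 10 genes, beside 28.5% of all tested genes. Of these, Ccl22 and Ccl17 were at 0 in every WT library at 18 h and could only fall, which leaves 4 of 8. The fall did not pass at Ccl5 (-0.11, adjusted p 0.763), Ccl3 (-0.31, adjusted p 0.105) and Ccl4 (-0.31, adjusted p 0.0765). Ccl9 (-0.74, adjusted p 0.00105) and Ccl6 (-1.0, adjusted p 0.000117) ended below their 0 h levels, as with Pol II. In KO 8 of 10 genes rose at 1 h, beside 20.4%, with Ccl22 at 0 in every KO library at 0 h and able only to rise, and 6 of 9 rose and 2 fell at 18 h, beside 18.4% and 34.2%.

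**Figure D4:**
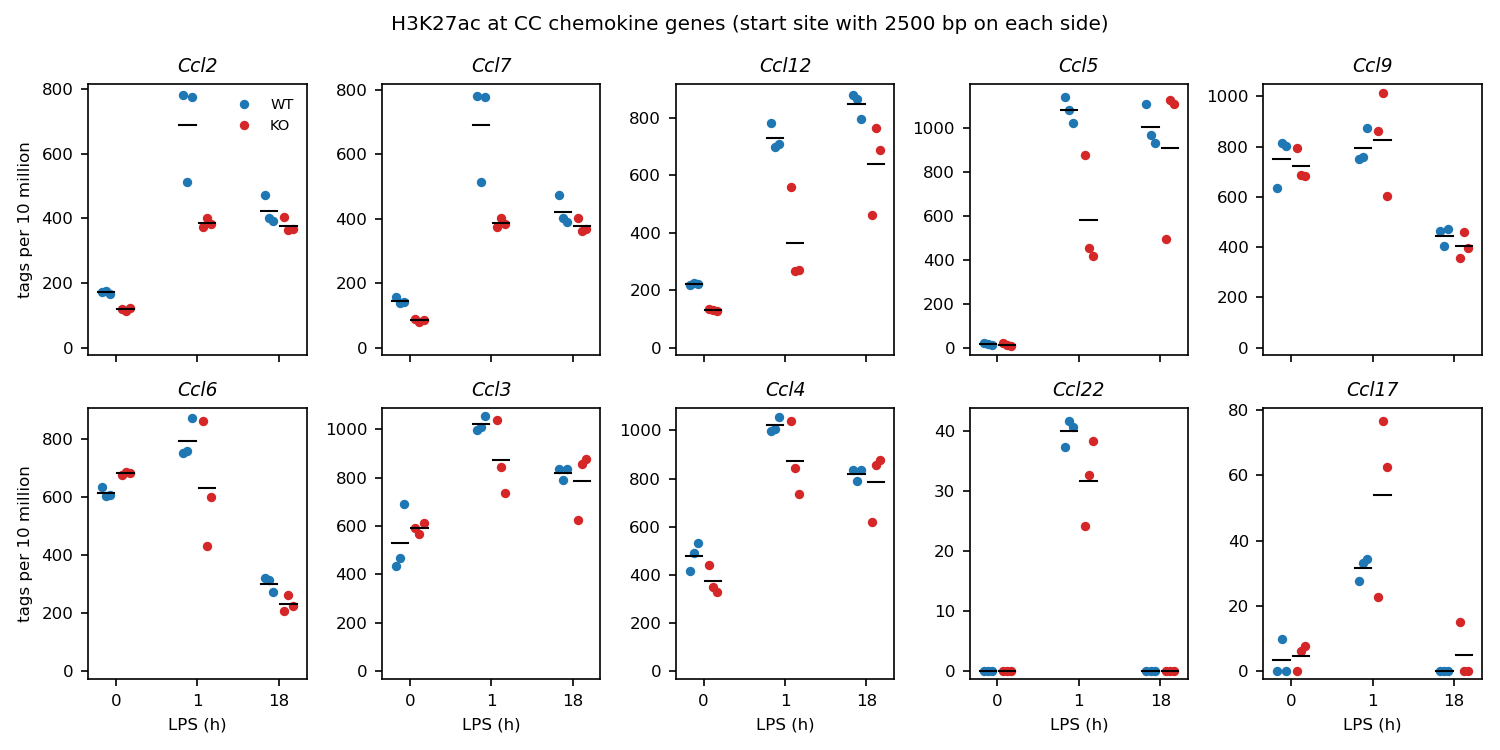
H3K27ac in normalized tags within 2500 bp of each gene start (vertical axis) by genotype and hours of LPS, with a point for each of the 3 libraries of a group. At Ccl2, Ccl7, Ccl12 and Ccl5 every KO library at 1 h lies below every WT library, and at 1 h and 18 h KO replicate 1 lies apart from the other KO libraries at Ccl12 and Ccl5.

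Between the genotypes H3K27ac at 1 h was lower in KO at 4 of 10 genes, beside 7.26% of all tested genes. These were Ccl2 (373, 402 and 384 tags in KO, log2 change -0.80 ± 0.12, SE, adjusted p 0.00124), Ccl7 with the same region (-0.80 ± 0.13, adjusted p 0.00153), Ccl12 and Ccl5. Ccl12 was at 560.5, 266 and 269 tags (-1.07 ± 0.21, adjusted p 0.00546) and Ccl5 at 876, 454 and 415 (-0.97 ± 0.30, adjusted p 0.0351). At both, replicate 1 is the high value. Without KO replicate 1 of 1 h and 18 h, Ccl2 changed by -0.77, Ccl12 by -1.42 and Ccl5 by -1.30, and Ccl6 (-0.63), Ccl3 and Ccl4 (-0.37 each) were lower as well, while Ccl17 was higher (0.93, adjusted p 0.0102), 8 calls in all. With replicate 1 as the only KO library at those times, Ccl2 (-0.85, adjusted p 0.0226), Ccl7, Ccl12 (-0.38, adjusted p 0.01) and Ccl22 (-0.55, adjusted p 0.0088) passed, and Ccl5 did not (-0.30, adjusted p 0.502). The lone library is there assumed to vary like those of the other groups. H3K27ac at markers of other cells moved as well. At 1 h 6 neutrophil markers summed to 105 to 124 tags in KO and 59.6 to 70.4 in WT, with 3 of 6 at 0 in each library, and Elane (0.86) and S100a8 (1.45) of 3 tested were higher in KO. The 5 stromal markers summed to 675 to 700 tags in KO and 1032 to 1078 in WT, and of 8 macrophage markers Lyz2, Cd68 and Csf1r were higher in KO. The part of these shifts in the chemokine values was not tested. Lower H3K27ac at Ccl2, Ccl7 and Ccl12 in KO at 1 h was thus found either way, and without replicate 2 the call of Ccl12 was lost, leaving Ccl2 and Ccl7 (-1.02 each), and without replicate 3 none of the 4 passed.

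At 0 h 1 of 9 tested genes was lower in KO, Ccl7 (87.6, 77.9 and 86.5 tags against 156, 139 and 141 in WT, log2 change -0.72 ± 0.13, adjusted p 0.00934), beside 0.305% of all tested genes. The call of Ccl7 was lost without replicate 2 (adjusted p 0.0765) or 3 (0.372) and in the narrower window (-0.48, adjusted p 0.16). The 6 neutrophil markers summed to 162 to 179 tags in KO and 72.4 to 86.4 in WT at 0 h. Stromal markers summed to 613 to 622 tags in KO and 724 to 847 in WT. Lymphocyte markers were at 170 to 243 in KO and 262 to 287 in WT, and dendritic markers at 261 to 286 and 292 to 316. The part of these shifts in the chemokine values was not tested. Ccl2 (-0.49, adjusted p 0.0947) and Ccl12 (-0.71, adjusted p 0.188) also had KO libraries below all WT libraries. Leaving out KO libraries of the other times alters only the shared variance at 0 h. Without KO replicate 1 of those times Ccl7 (adjusted p 0.00224), Ccl2 (0.0181), Ccl12 (1.33e-06) and Ccl4 (-0.36, 0.0323) passed, and with it as their only KO library the same 4 did (0.00598, 0.0327, 5.88e-06 and 0.0429). At 18 h limma called none of 8 genes, beside 0.951% of all tested genes higher and 2.25% lower, and 1 had an unadjusted p under 0.05. Without KO replicate 1 only Ccl12 passed (-0.22, adjusted p 0.0244). With it as the only KO library Ccl5 (-1.0, adjusted p 0.00793), Ccl6 (-0.52) and Ccl12 (-0.86) were lower. Ccl17 passed as well, but it was at 15 tags in that library and at 0 in every WT library at 18 h, so it could only come out higher. The interaction passed for none of 10 genes at 1 h and none of 9 at 18 h with limma, with 1 and 2 at an unadjusted p under 0.05, beside 0.0987% higher and 0.436% lower among all tested genes at 1 h and 0.149% and 0.456% at 18 h. Without KO replicate 1 it passed at 1 h for Ccl12 (-0.70), Ccl5 (-1.06), Ccl6 (-0.77) and Ccl3 (-0.55) and at 18 h for Ccl12 (0.49, adjusted p 0.00231). With it as the only KO library it passed for none at 1 h and for Ccl6 at 18 h (-0.66, adjusted p 0.00156).

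Regions outside the genes carried part of the response, chosen here after their values were seen. Before the start of Ccl12, H3K27ac at chr11:82065803-82082040, centred 27.9 kb away, was 76 ± 2 tags at 0 h, 1121 ± 53 at 1 h and 167 ± 25 at 18 h in WT. In KO it was 26 ± 5 tags at 0 h and 261 to 800 at 1 h, so that every KO library was below WT. The log2 change between genotypes was -1.52 at 1 h (adjusted p 0.00301) and -2.03 (adjusted p 6.79e-09) without KO replicate 1, but -0.48 with it as the only KO library, which missed the threshold (adjusted p 0.0552). A nearer region, chr11:82086254-82090624, centred 13.4 kb before Ccl12, was lower in KO at 1 h by both marks. H3K27ac there was 256 ± 7 tags in WT and 68 ± 39 in KO (-1.87, adjusted p 0.000787, and -2.25 without KO replicate 1 or -1.10 with it alone, adjusted p 0.0455). Pol II within it, at chr11:82086844-82089299, was listed at 0 in all libraries at 0 h and was 41 ± 14 tags in WT and 14 ± 8 in KO at 1 h (-1.11, adjusted p 0.000855). At 18 h Pol II there was 40 ± 4 and 42 ± 1 tags. Near Ccl22, H3K27ac at chr8:94702095-94717635, centred 35.7 kb before its start, was 1456 ± 41 tags in WT and 954 ± 206 in KO at 1 h (-0.62, adjusted p 0.00257, and -0.79 without KO replicate 1 or -0.29 with it alone, adjusted p 0.0134), while Pol II within it did not pass (0.11, adjusted p 0.488). Of all merged H3K27ac regions tested, 10.9% were lower and 22.6% higher in KO at 1 h.

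The rest of the ligand and receptor families gave few testable genes. Of 14 other CC ligand genes 4 were tested for Pol II between genotypes at 1 h. Ccl8, a further monocyte chemoattractant, had 94.5 ± 5.99 tags in WT and 48.1 ± 2.39 in KO (SD, n = 3, log2 change -0.85, adjusted p 2.74e-05), and Ccl24, an eosinophil attractant, was lower too (-0.73, adjusted p 0.0164). Both were listed at 0 in all Pol II libraries at 0 h and 18 h. Ccl28 (2.14) and Ccl25 (1.09) were higher in KO. Of the few receptor genes tested at 1 h none was lower in KO, and Ccr1 (0.62) and Ccr9 (0.29) were among those that were higher. Of all tested genes 7.53% were lower and 38.1% higher, with the median at 0.24, so this is a description only. At 18 h Ccr2, the receptor for Ccl2, was among those lower in KO (-2.52), as were Ccr3 (-1.08) and Ccr1 (-0.59), while Ccrl2 was higher (0.38), beside 13.4% of all tested genes that were lower and 7.55% that were higher.

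The genes over 1 Mb away whose Pol II was most like each chemokine gene were taken by Pearson's r over the 18 libraries, among 13593 genes. The libraries share 6 groups, so r mainly describes the time course, and nothing follows from it on control. Ccl5 was closest to Sod2 (r = 0.998), Sppl2a and Traf1, and Ccl22 to Il12b, Cxcl3 and Csf2, which also had Pol II almost only at 1 h. Ccl3 was closest to Mapkapk2 (0.990) and Ccl4, although it shares most regions with Ccl3, to Il12b (0.982). Ccl2 was closest to Apobr (0.986), Ccl7 to Tnip3 (0.987) and Ccl12 to Icosl (0.979), followed by Il10 and Irf1. Ccl6 was closest to Bcar3 (0.995) and Ccl9 to Calcrl (0.984). Ccl17, at few tags, reached 0.910 with Maats1.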

How the data were processed

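According to the labels and the methods, reads were trimmed (Skewer), aligned to mm10 (HISAT2 2.1.0) and each library was searched separately for broad regions (HOMER), with no input control. The file headers give 500 bp windows, a Poisson p of 0.001 and stitching within 1000 bp. The signal deposited by the authors is tags per region per 10 M tags (M, mega), not counts. For the Pol II antibody the label and the methods name different catalogue numbers.

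Gene windows came from GENCODE vM21 (GRCm38), leaving out 54 genes with duplicate symbols. A region not found counts as 0, so window sums depend on how widely regions were found. Log2(tags + 10) was compared with limma 3.58.1 (R 4.3.3) over 6 group means with an intensity trend, two-sided, with Benjamini-Hochberg adjustment over all tested genes, called at 0.05. A gene was tested when found in 2 of 3 libraries of a group compared. All 10 genes were named, other genes only from fixed lists (other CC ligands, receptors, protein-coding genes from 100 kb before Ccl2 to 100 kb after Ccl4, cell type markers) where they passed, and the 3 most like genes of each. A listed gene is not reported here. The members and lists were chosen with earlier results of these data known. Alternatives were pseudocounts of 1 and 50, other filters, scalings, windows, a density floor, input subtraction, no trend, a replicate block, leaving out libraries and merged regions. Data.table (1.17.8), Python 3.11.15, pandas 2.3.3, numpy 2.4.6 and matplotlib 3.10.9 were used.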

Additional observations from a re-analysis of the deposited data

Results flagged for a closer look

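For 8 results the LPS response at Pol II differed between the genotypes by a test of the difference itself (limma, genotype by LPS interaction, KO minus WT, on the log2(tags + 10) scale). At 1 h they were Ccl2 (-0.62), Ccl9 (-0.59), Ccl22 (-0.67) and Ccl12 (0.72). At 18 h they were Ccl12 (1.20), Ccl5 (1.17), Ccl3 (0.79) and Ccl6 (-0.45). That of Ccl5 includes a difference of -0.58 at 0 h, where every KO library was at 0. Those of Ccl12 include a difference of -1.27 at 0 h, where KO was near the limit of the region search. Of the 8, that of Ccl3 at 18 h passed in all 14 settings tried. That of Ccl4 at 18 h, which shares the region of Ccl3 in 17 of 18 libraries, passed in 1 of the 14. Groups of 3 libraries were not searched for single outlying values.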

How the results depend on the processing

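Of 2696 values for single genes under an alternative, 2502 kept their side of the threshold, of which 74 that were not called changed sign, 111 lost the call, 76 gained one and 7 reversed. The reversed values, each called in at least 1 of both fits, were Pol II of Ccl9 at 1 h in KO after quantile normalization (-0.12), Pol II between genotypes at 18 h with input subtracted for Ccl6 (0.082) and Ccl12 (0.48), the interaction of Ccl6 at 18 h with input subtracted (0.18), the interactions at 1 h in the narrower window of Ccl5 (-0.39) and Ccl12 (-0.12), and H3K27ac of Ccl6 at 1 h in KO with KO replicate 1 alone (0.33). Counts of called genes for Pol II between genotypes were 4, 8 and 3 at 0, 1 and 18 h. The narrower window gave 2 at 0 h and 1 at 18 h, merged regions gave 7 at 18 h (an alternative chosen after seeing the data), and leaving out 1 replicate gave 3 to 4, 3 to 8 and 1 to 2. Pol II interactions (4 at 1 h, 4 at 18 h) came to 2 at 1 h with a pseudocount of 1, 1 with no filter, 2 after quantile normalization and 2 in the narrower window, which gave 2 at 18 h, and leaving out 1 replicate gave 0 to 2 and 2 to 3. H3K27ac between genotypes (1, 4 and 0) came at 0 h to 2 after centring, quantile normalization, input subtraction or merging and 0 in the narrower window, and at 1 h to 8 after merging. Without KO replicate 1 of 1 h and 18 h it came to 4, 8 and 1, with it alone to 4 at 0 h and 4 at 18 h, and leaving out 1 replicate number gave 0 to 3, 0 to 8 and 0. H3K27ac interactions (0 and 0) came to 4 at 1 h and 1 at 18 h without KO replicate 1, 1 at 18 h with it alone, 1 at 18 h with input subtracted, and 0 to 3 and 0 to 2 without 1 replicate number. The causes were not tested. The replicate numbers did not pair the libraries (correlation of deviations -0.0428 to 0.107 for Pol II and -0.0523 to 0.0158 for H3K27ac), and a replicate block moved 3 of the counts, the Pol II interactions to 3 at 1 h and 3 at 18 h and H3K27ac in KO at 18 h against 0 h to 7. Values near the limit of the region search (Ccl17, Ccl5 at 0 h, Ccl12 in KO at 0 h) are the least certain.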
